A study of Drosophila melanogaster with 4 samples.

Results

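The Antennapedia complex and the bithorax complex hold the homeotic (Hox) genes of Drosophila melanogaster, and regions of histone H3 mono-methylated at lysine 9 (H3K9me1) were examined across them. Nuclei of larvae at the third instar were used, of the strain Oregon-R and wild type in genotype, and the mark was mapped by chromatin immunoprecipitation followed by sequencing (ChIP-seq) with lot 2 of the antibody. There were 2 ChIP replicates and 2 inputs of unprecipitated chromatin, and each input served as the background of the ChIP replicate of the same number. The authors deposited 3 lists of regions: each ChIP replicate has its own, and a combined list stands for both. A region listed as enriched is called a domain, and each carries a score given by the authors, on a scale that no label or header states. The labels name no tissue within the larva, so cells that express a given Hox gene and cells that do not cannot be told apart in a domain. The labels do not state that the larvae of each replicate were collected apart, so the spread between replicates may be technical.

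Members were taken by position on chromosome arm 3R, in coordinates of FlyBase release 5. The Antennapedia window ran from 2480000 to 2830000 and was drawn to hold lab, pb, Dfd, Scr and Antp. The bithorax window ran from 12480000 to 12800000 and was drawn to hold Ubx, abd-A and Abd-B. Every region that overlapped a window was a member. There were 118 of them among 33888 regions of the 3 lists. Replicate 1 gave 29 (14 in the Antennapedia complex and 15 in the bithorax complex), replicate 2 gave 21 (13 and 8), and the combined list gave 68 (32 and 36). All 118 were listed as enriched. Regions marked as depleted of H3K9me1 were rare throughout, at 11 of 8315 in replicate 1, 2 of 11822 in replicate 2 and 49 of 13751 in the combined list, so their absence from the windows says little.

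Hox genes encode homeodomain transcription factors that give each body segment its identity, and their order along the chromosome follows the order of the segments they specify. Among the genes of the Antennapedia complex, lab acts in the head and the midgut, pb shapes the mouthparts and Dfd acts in the jaw segments. Scr specifies the labial and first thoracic segments, and Antp specifies the thorax and its legs. In the bithorax complex, Ubx sets the haltere-bearing segment, abd-A the front and middle abdomen, and Abd-B the rear abdomen and genitalia. Both complexes are classic targets of the Polycomb group proteins, which keep Hox genes silent in segments where they do not belong, within broad domains of methylation at lysine 27 of the same histone. Methylation at lysine 9 is best known from heterochromatin in its higher states, and the mono-methylated form is the first step towards them.

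A gene table on release 6 of the genome was used for gene order alone, and its coordinates were not converted. It places lab, pb, Dfd, Scr and Antp in this order in a run of 43 genes. The run holds 14 other protein-coding genes, among them the early patterning genes zen, bcd and ftz and several cuticle protein genes of the Ccp84A group. Ubx, abd-A and Abd-B stand in this order in a run of 16 genes with 3 other protein-coding genes, CG31275, Glut3 and MSAmiP. Each run holds 2 microRNA genes. In the same table, lab lies nearest the start of 3R within its complex and Ubx within its own. Domains were not assigned to single genes, since the gene table and the lists are on different releases, and positions are therefore given along each window.

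H3K9me1 domains were sparse over both complexes. They covered 10.8% of the Antennapedia complex in replicate 1 and 8.12% in replicate 2, against 31.9% and 28.4% of the rest of 3R. They covered 11.3% of the bithorax complex in replicate 1 and 5.71% in replicate 2. As means, the covered share was 9.46% ± 1.90 in the Antennapedia complex, 8.52% ± 3.97 in the bithorax complex and 30.1% ± 2.43 in the rest of 3R (SD, n = 2 each). The Antennapedia complex thus had 0.312 ± 0.0378 of the share of the rest of the arm, and the bithorax complex 0.278 ± 0.109 (SD, n = 2 each).

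The gap to the rest of the arm was larger than the spread between replicates in both complexes. The covered share of the Antennapedia complex minus that of the rest of 3R was -21.1 percentage points in replicate 1 and -20.3 in replicate 2. For the bithorax complex, the same difference was -20.5 points in replicate 1 and -22.7 in replicate 2. With 2 replicates an exact sign-flip permutation test cannot give a p below 0.5, and no other test of these differences was run. The lists hold no read counts, and with the read depth unknown no counting error can be given.

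**Figure D1:**
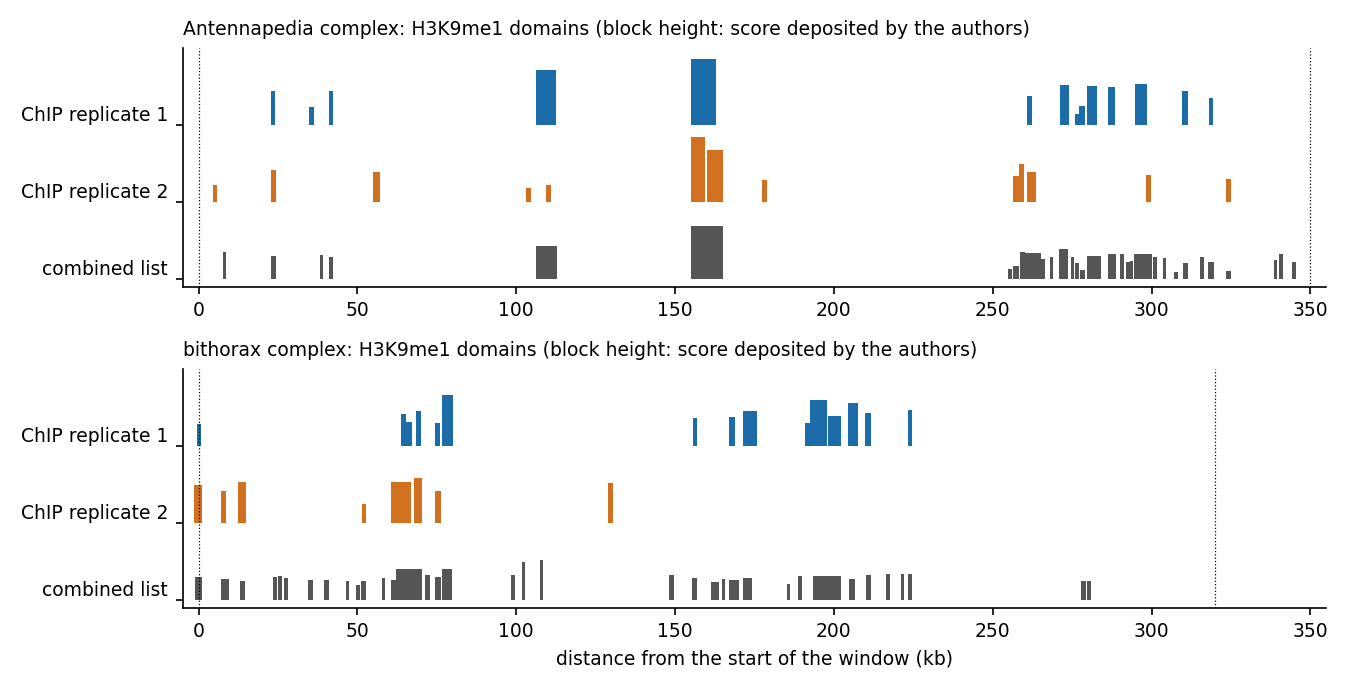
H3K9me1 domains along the Antennapedia complex (top) and the bithorax complex (bottom) in ChIP replicate 1, ChIP replicate 2 and the combined list, by distance from the start of the window in kb; dotted lines mark the window ends, each block is a domain, and block height is proportional to the authors' score, to be compared within a row only. Domains sit in a few groups with long empty stretches between them, and the 9 domains of replicate 1 beyond 150 kb in the bithorax complex have no counterpart in replicate 2.

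In the replicate lists, domains of the complexes were fewer per length and had shorter medians than those of the rest of 3R. In the Antennapedia complex there were 4.00 domains per 100 kb in replicate 1 and 3.71 in replicate 2, against 6.84 and 9.05 in the rest of 3R. In the bithorax complex there were 4.69 in replicate 1 and 2.50 in replicate 2. The combined list differed, with 9.14 in the Antennapedia complex and 11.2 in the bithorax complex, against 10.9 in the rest of 3R. Median domain length in the Antennapedia complex was 1823 bp in replicate 1 and 1641 bp in replicate 2, against 2437.5 bp and 2208 bp in the rest of 3R. In the bithorax complex it was 1841 bp and 2082.5 bp. The longest member was 7816 bp in replicate 1 and 6400 bp in replicate 2. No member of either replicate list reached 10 kb. Of all 3R domains, 10.3% did in replicate 1 and 2.73% in replicate 2. With 21 members in replicate 2, the absence there says little at such a share. In the combined list 1 member of 68 reached 10 kb, against 6.49% of its 3R domains.

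Scores did not move in one direction. In replicate 1 the median score of the members was 0.535 in the Antennapedia complex and 0.510 in the bithorax complex, against 0.564 in the rest of 3R. In replicate 2 it was 0.426 in the Antennapedia complex and 0.620 in the bithorax complex, against 0.547. The arm's own median splits its domains evenly. Above it lay 6 of 14 Antennapedia members and 4 of 15 bithorax members in replicate 1. In replicate 2, 3 of 13 Antennapedia members and 5 of 8 bithorax members lay above it. So did 12 of 32 and 16 of 36 in the combined list. Members thus lay on both sides of the arm's median but did not reach its highest scores. The top member of replicate 1 scored 1.05, higher than 89.3% of its 3R domains, which went up to 2.16. That of replicate 2 scored 1.03 (higher than 97.0%, 3R maximum 1.79). Combined members scored 0.842 at most (higher than 93.7%, 3R maximum 2.57). The median of the bithorax complex lay on different sides of the arm's median in the 2 replicates.

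**Figure D2:**
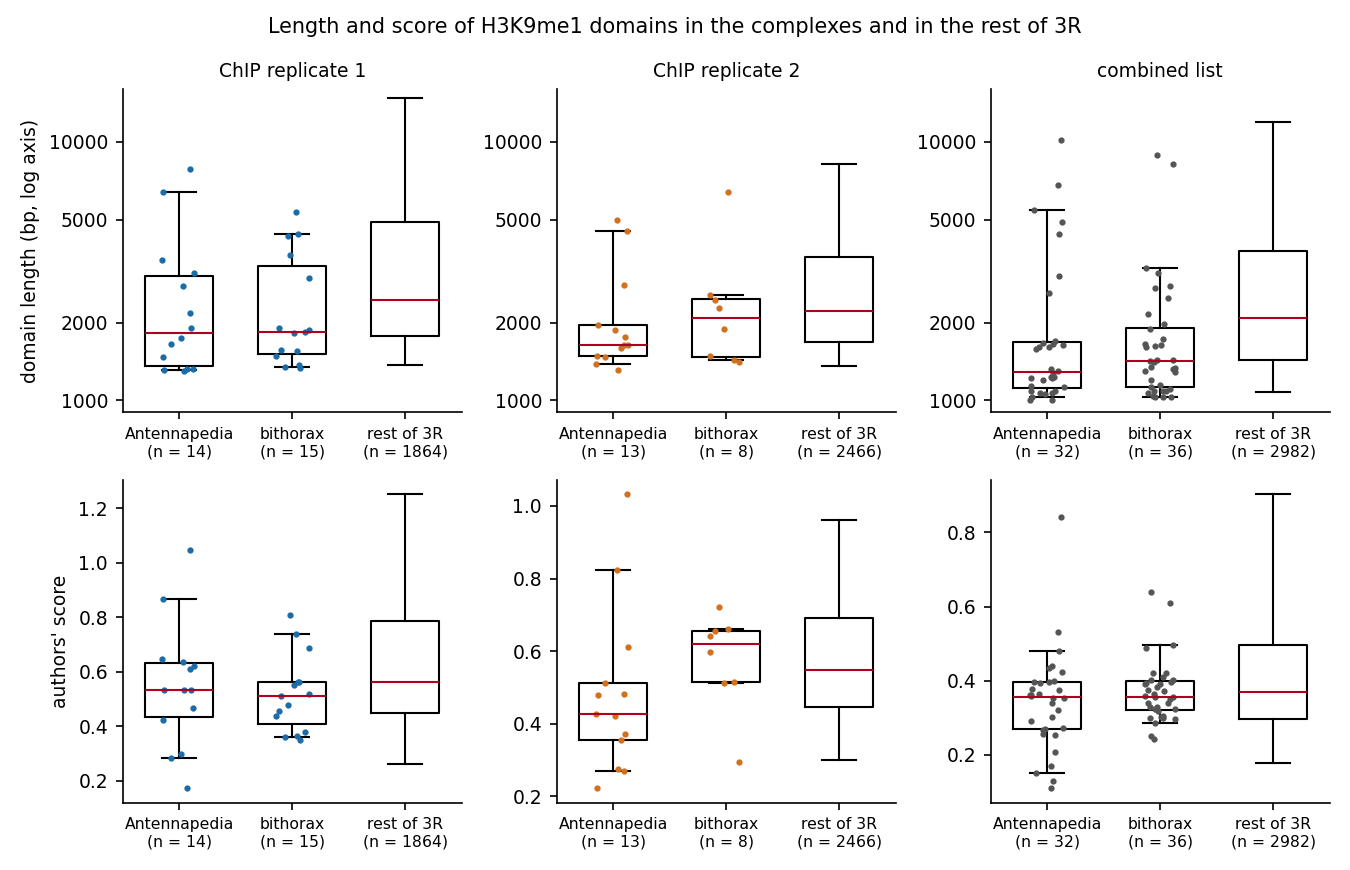
Length (top, bp, log axis) and authors' score (bottom) of the domains in the Antennapedia complex, the bithorax complex and the rest of 3R, in each list. Boxes show the median and quartiles, whiskers the 5th and 95th percentiles, and points the single members; medians of length in the complexes lie below those of the rest of 3R in all 3 lists, while scores overlap.

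To see how unusual such sparse coverage is on the arm, each complex was set beside windows of its own length shifted in steps of 10 kb along 3R, leaving out those that touch either complex. Shifted windows overlap each other, so the positions below are a description and carry no p-value. Of 2619 windows of the length of the Antennapedia complex, 5.08% had a lower covered share in replicate 1 and 2.29% in replicate 2. The median of these windows was 31.4% in replicate 1 and 26.9% in replicate 2. Of 2628 windows of the length of the bithorax complex, 6.70% had a lower share in replicate 1 and 0.799% in replicate 2, with medians of 31.1% and 27.2%. In the combined list, where coverage was 19.8% in the Antennapedia complex and 21.8% in the bithorax complex against 40.9% in the rest of the arm, 9.13% and 13.6% of the windows lay lower. Both complexes therefore lay in the low tail of the arm but not at its end.

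The number of domains placed the complexes less far down than coverage did in replicate 1. Of the shifted windows, 13.2% held fewer domains than the Antennapedia complex in replicate 1 and 2.41% in replicate 2. For the bithorax complex these were 21.9% and 0.875%. Of the windows in the combined list, 26.5% held fewer domains than the 32 of the Antennapedia complex, and 48.4% fewer than the 36 of the bithorax complex.

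Domain length stood lower among the windows than domain number did in the Antennapedia complex. Its median length was undercut by 3.32% of windows in replicate 1 and 0.878% in replicate 2. No window of the combined list undercut its 1288.5 bp, and the shortest median among them was 1310.5 bp. The median length in the bithorax complex was undercut by 4.42% of windows in replicate 1 and 34.1% in replicate 2, and that of 1417 bp in the combined list by 0.837%.

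Median scores had no common place among the windows. The Antennapedia complex lay above 29.5% of them in replicate 1 and above none in replicate 2, where its 0.426 was just under the lowest window at 0.428. The bithorax complex lay above 14.4% in replicate 1 and above 90.5% in replicate 2, on 8 domains. Combined-list scores gave 25.2% of windows a lower median than the Antennapedia complex and 26.6% a lower one than the bithorax complex.

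Windows that were covered less than a complex in both replicates at once were few and clustered. For the Antennapedia complex there were 50, in 3 separate stretches of 3R. The largest, from 23580001 to 24360001, gave 44 of them and was covered to 4.19% in replicate 1 and 6.98% in replicate 2. The other two ran from 15740001 to 16100001 and from 26650001 to 27030001. For the bithorax complex there were 17, all from 23760001 to 24240001, inside the same largest stretch. Cut into adjacent windows with no overlap, 3R gave 75 of the length of the Antennapedia complex. Of these 3 lay below it in replicate 1 and 2 in replicate 2. Of 83 of the length of the bithorax complex, 7 lay below it in replicate 1 and none in replicate 2.

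**Figure D3:**
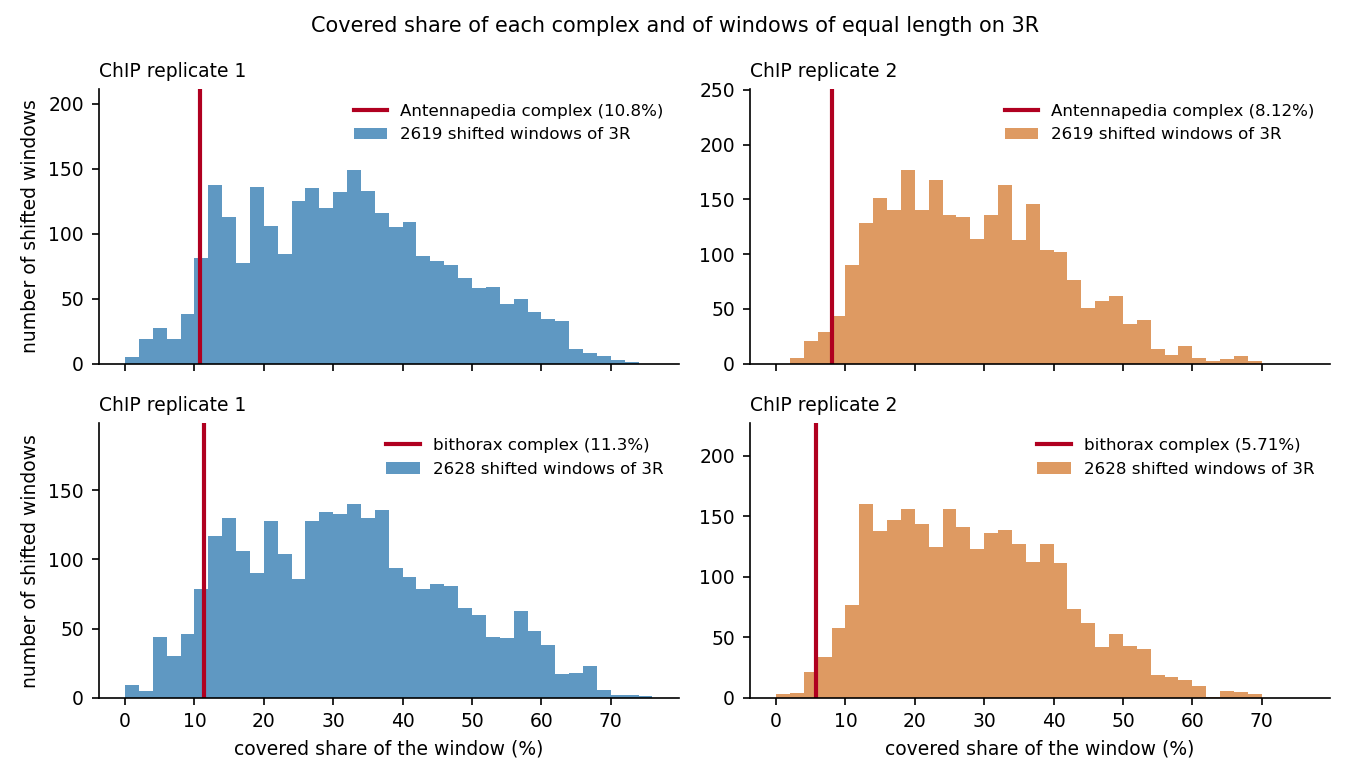
Number of shifted windows of 3R (vertical axis) by covered share in percent (horizontal axis), for windows of the length of the Antennapedia complex (top) and of the bithorax complex (bottom), in ChIP replicate 1 (left) and ChIP replicate 2 (right). The red line marks the complex, at 10.8% and 8.12% for the Antennapedia complex and at 11.3% and 5.71% for the bithorax complex.

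The neighbourhood of each complex was covered more than the complex itself. The window of equal length just before the Antennapedia complex, on the side of lab, was covered to 19.7% in replicate 1 and 25.2% in replicate 2. The one just after it, on the side of Antp, was covered to 24.3% and 19.0%. Before the bithorax complex, on the side of Ubx, the share was 33.2% in replicate 1 and 18.4% in replicate 2, and after it, on the side of Abd-B, it was 30.1% and 24.1%. In each replicate all 4 flanking windows exceeded the complex they adjoin. Single bins of 100 kb overlapped in coverage with bins inside the complexes. Only 2 such bins lay wholly inside each complex, and bins across a window end were left out. Of 36 bins outside, 13 in replicate 1 and 8 in replicate 2 lay below the highest bin wholly inside the Antennapedia complex, and 16 and 7 did so for the bithorax complex. For the Antennapedia complex, the 100 kb bin centred 250 kb before its centre held no domain of replicate 1. Replicate 2 covered 3.60% of that bin. The bin centred 550 kb after the centre of the Antennapedia complex was covered to 2.90% in replicate 1 and 1.82% in replicate 2.

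**Figure D4:**
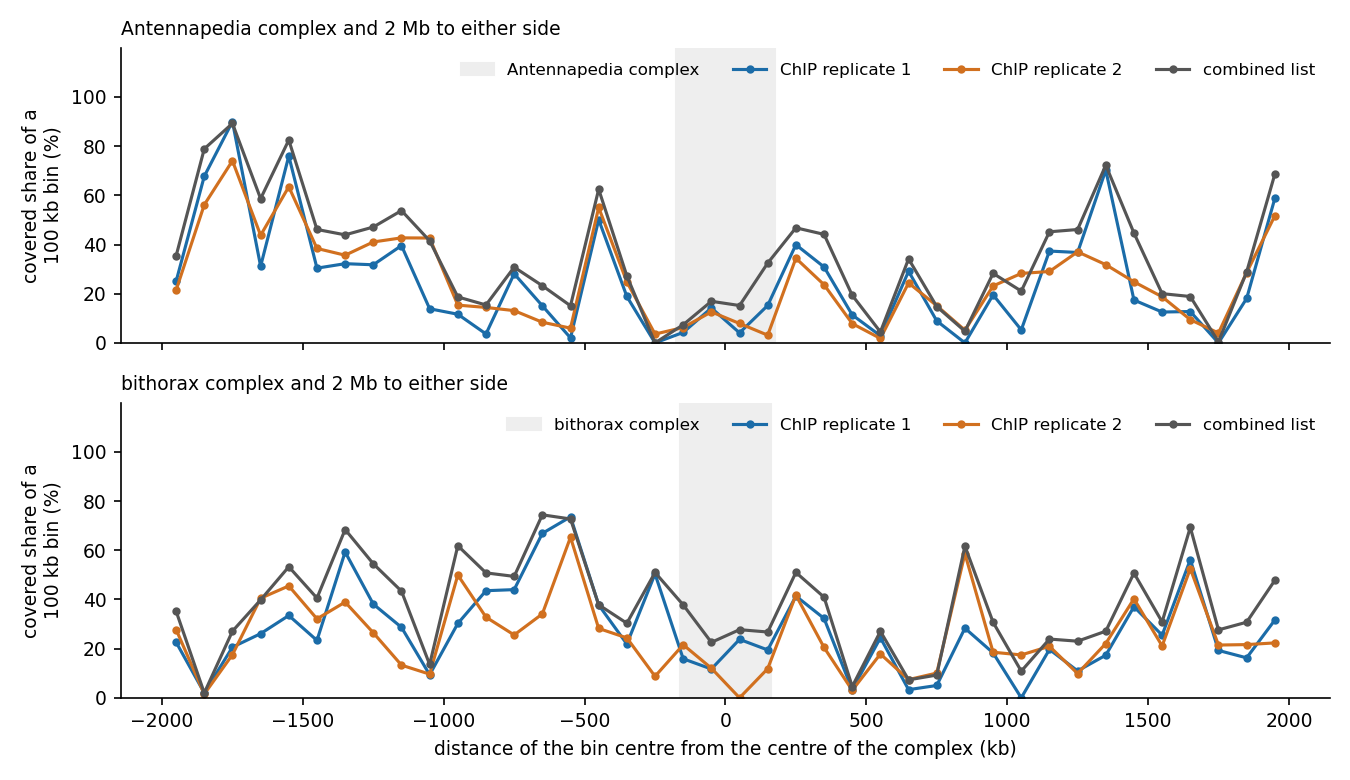
Covered share of 100 kb bins (vertical axis, percent) by distance of the bin from the centre of the Antennapedia complex (top) or the bithorax complex (bottom), in kb, for both ChIP replicates and the combined list; grey marks the complex. The 2 bins wholly inside the Antennapedia complex lie at 4.09% and 14.2% in replicate 1 and at 7.90% and 12.6% in replicate 2. The 2 inside the bithorax complex lie at 11.7% and 23.8% in replicate 1, against a median of 25.8% outside it. In replicate 2 they lie at 0% and 12.0%.

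Within the Antennapedia complex the replicates marked the same place most clearly near the middle of the window. Replicate 1 listed its longest and highest-scoring member there, from 2634900 to 2642715 (7816 bp, score 1.05), which ranked 202 by score among 1893 domains of 3R. Replicate 2 listed 2 members side by side, from 2634895 to 2639401 (score 1.03, rank 74 of 2487) and from 2639974 to 2644949 (4976 bp, score 0.823). The first starts of the replicates were 5 bp apart. The combined list joined them into 1 domain from 2634846 to 2644977 of 10132 bp with a score of 0.842, its longest and highest-scoring in the complex and higher than 93.7% of its 3R domains. This was the only member of 10 kb or more in any list.

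A second long domain lay from 2586174 to 2592563 in replicate 1 (6390 bp, score 0.869, higher than 81.0% of its 3R domains). Replicate 2 listed a short domain inside it, from 2589340 to 2590980 (1641 bp, score 0.269, higher than 3.22%). The combined list held the stretch from 2586170 to 2592958 with a score of 0.532. Both replicates therefore marked the place, high among the scores of replicate 1 and low among those of replicate 2. Near the start of the window, the domain of replicate 1 from 2502801 to 2504104 lay wholly inside that of replicate 2 from 2502753 to 2504226, with edges 48 and 122 bp apart.

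Each window was cut into 4 sections of equal length, numbered along the arm. Section 4 of the Antennapedia window, 87.5 kb on the side of Antp, was covered to 20.6% in replicate 1 and to 4.97% in replicate 2, while the combined list covered 46.7% of it. Of the 14 members of replicate 1 in the complex, 8 were centred there, against 2 of the 13 of replicate 2. The combined list placed 23 of its 32 Antennapedia members there. Of these 23, 2 overlapped a domain of both replicates, 7 of replicate 1 alone, 1 of replicate 2 alone and 13 of neither. Over all combined domains of 3R these shares were 37.5%, 23.4%, 24.9% and 14.1%. The replicate lists hold no 3R domain under 1301 bp. Of the 17 combined members of the whole Antennapedia complex under that length, 15 overlapped neither replicate. Among the longest domains of the combined list in this section were 5462 bp from 2774584 to 2780045 and 4407 bp from 2759751 to 2764157. The first of these overlapped domains of both replicates, which shared 107 bp there, and the second overlapped replicate 1 alone. The combined domain from 2740225 to 2745113 (4889 bp) straddled the start of the section and overlapped both replicates. That from 2750808 to 2753831, number 3 by score in the complex at 0.479, overlapped replicate 1 alone.

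The rest of the Antennapedia window was thinly marked. Section 1, on the side of lab, had a covered share of 4.88% in replicate 1 and 5.43% in replicate 2. Section 3 had 1.51% and 7.66%. Section 2, which holds both long domains described above, was covered to 16.2% and 14.4%. No section reached the 31.9% and 28.4% of the rest of 3R in either replicate. In the combined list section 4, at 46.7%, lay above the 40.9% of the rest of 3R.

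In the bithorax complex the replicates met in section 1, on the side of Ubx. This section of 80.0 kb was covered to 13.6% in replicate 1 and to 21.0% in replicate 2. The combined list covered 41.3% of it, against 40.9% of the rest of 3R. From 12540527 to 12546926 replicate 2 listed the longest of its members in either complex (6400 bp, score 0.660), and replicate 1 listed 2 shorter domains over it, from 12543800 to 12545364 and from 12545399 to 12547239. The highest-scoring bithorax member of replicate 2, from 12547933 to 12550202 (2270 bp, score 0.723), held a replicate 1 domain from 12548277 to 12550103 entirely (score 0.552). The combined list held 2 domains over these, from 12540589 to 12542015 (1427 bp, score 0.328) and from 12542070 to 12550258 (8189 bp, score 0.496). A further pair began at the same base, 12554491, and ended at 12555835 in replicate 1 and at 12556385 in replicate 2. The highest-scoring bithorax member of replicate 1, from 12556465 to 12560119 (3655 bp, score 0.807), had no counterpart in replicate 2. The combined list held it with a length of 3259 bp, number 3 among its bithorax domains.

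Towards Abd-B the replicates parted. Section 3 was covered to 29.7% in replicate 1, close to the 31.9% of the rest of 3R, and held no domain of replicate 2. Replicate 2 listed nothing from 12610312 to 12811160, a stretch of 200.8 kb that was the 4th longest without a domain in that replicate on the whole arm, and 189.7 kb of it lay inside the window. Replicate 1 listed 9 domains in it, from 12635520 to 12704616, which covered 25.3 kb. They were not its weakest domains, nor its strongest, since their median score of 0.519 was at the 40.5th percentile of its 3R domains. The longest bithorax member of replicate 1 was among them, from 12672567 to 12677920 (5354 bp, score 0.737). The combined list had 16 domains in the same stretch of the window. Its longest bithorax domain, from 12673349 to 12682238 (8890 bp, score 0.384), lay there and joined 2 neighbouring domains of replicate 1. Those from 12647043 to 12650142 (3100 bp) and from 12651408 to 12654175 (2768 bp) each overlapped 1 domain of replicate 1. Without replicate 2 the covered share of the whole complex was 11.3%, and without replicate 1 it was 5.71%.

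The 2 highest scores of the combined list in the bithorax complex rested on neither replicate. They belonged to short domains from 12587375 to 12588505 (1131 bp, score 0.639) and from 12581645 to 12582755 (1111 bp, score 0.609), higher than 86.5% and 84.6% of the 3R domains of that list. No domain of either replicate overlapped them. Both are shorter than 1301 bp, the shortest length of a 3R domain in the replicate lists. Of all combined 3R domains under that length, 49.8% overlapped neither replicate.

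The longest stretch free of H3K9me1 domains in each window was mostly of ordinary length beside the longest in shifted windows. The longest free stretch within the Antennapedia window was longer than in 60.3% of shifted windows in replicate 1 and 66.9% in replicate 2, and for the combined list the figure was 75.9%. Within the bithorax window it was longer than in 62.6% of them in replicate 1 and 50.3% in the combined list, but than in 98.1% in replicate 2. On 3R there were 2569 stretches free of domains of both replicates, with a median of 1.89 kb and a 95th percentile of 26.6 kb. Of these, 59 reached 50 kb. All stretches named below were longer than that 95th percentile. The longest in the Antennapedia complex ran from 2658993 to 2736325 (77.3 kb, 25th on the arm), and the combined list held 1 domain of 1.23 kb in it. The next, from 2805088 to 2882117 (77.0 kb), had 24.9 kb inside the window. It began beyond the last domain of the replicate lists in the window, on the side of Antp. The combined list held 5 domains, or parts of them, over 5.46 kb of the whole stretch, some of them inside the window. The third ran from 2536946 to 2583089 (46.1 kb), and the combined list too held no domain in it. The longest in the bithorax complex ran from 12704617 to 12804550 (99.9 kb, 16th on the arm) and filled section 4 of the window, on the side of Abd-B. There the combined list held 2 short domains that covered 2.71 kb. It was followed in length by stretches from 12560120 to 12608832 (48.7 kb) and from 12494794 to 12531324 (36.5 kb). The first of these held 3 combined domains over 3.27 kb. The second held 8 combined domains, or parts of them, over 9.38 kb. Domain-free means that nothing was called, and how many reads lay there is not known.

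The share of members found in the other replicate was below that of all 3R domains, counting overlaps of 1 bp or more. Of the 29 members of replicate 1, 10 (34.5%, 95% exact interval 17.9% to 54.3%) overlapped a domain of replicate 2, against 65.0% of all 3R domains of replicate 1. Of the 21 members of replicate 2, 10 (47.6%, 25.7% to 70.2%) overlapped a domain of replicate 1, against 66.7% of all 3R domains. The second interval includes the share of the arm. By complex, 5 of 14 and 5 of 15 were found for replicate 1, and 6 of 13 and 4 of 8 for replicate 2. These intervals treat domains as independent, which neighbours are not, and they cover counting error only.

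Measured in bases, the replicates shared 11.6 kb of the Antennapedia complex, out of 54.6 kb that either covered. They shared 7.01 kb of the bithorax complex, out of 47.5 kb. Their Jaccard index (shared bases over bases covered by either) was 0.213 in the Antennapedia complex and 0.148 in the bithorax complex, against 0.436 over all of 3R. Shifted windows had a median of 0.415 for the first length and 0.415 for the second, and 5.73% and 1.67% of them lay below the complex. The index was also read in windows of low coverage. Over the 50 windows covered less than the Antennapedia complex in both replicates its median was 0.205, with a range of 0 to 0.399, and over the 17 below the bithorax complex its median was 0.205, with a range of 0 to 0.218. Many of these windows overlap and hold the same domains, so the 2 medians are not independent of each other. Of the 50 windows, 44 came from 1 stretch of 3R, and all 17 lay inside that stretch. They are therefore close to a single place on the arm and cannot stand for windows of low coverage at large. The index of each complex lay within the range of its own set. Whether coverage has a part in the low overlap was not tested.

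The combined list marked the complexes with many small domains that neither replicate list held. Of its 68 members, 37 (54.4%, 95% exact interval 41.9% to 66.5%) overlapped a domain of neither replicate, against 14.1% of its 3R domains. Those with support in both numbered 8 (11.8%, 5.22% to 21.9%), against 37.5% on the arm. By complex, 16 of 32 Antennapedia members and 21 of 36 bithorax members rested on neither. These 37 had a median length of 1147 bp, while the replicate lists hold no 3R domain shorter than 1301 bp. Of the members under 1301 bp, 28 of 31 (90.3%) rested on neither replicate, against 49.8% of such domains on 3R. Of those at or above it, 9 of 37 (24.3%) did, against 5.68%. Of these 9, 8 lay in the bithorax complex, out of 22 (36.4%), and 1 in the Antennapedia complex, out of 15 (6.67%). Length therefore moves with this result. Under 1301 bp the share was above that of the arm in each complex, at 15 of 17 Antennapedia and 13 of 14 bithorax members. At or above 1301 bp the excess lay in the bithorax complex, and the Antennapedia share was close to that of the arm. No label or header says how the combined list was called, and since it rests on the same samples these counts are a description.

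**Figure D5:**
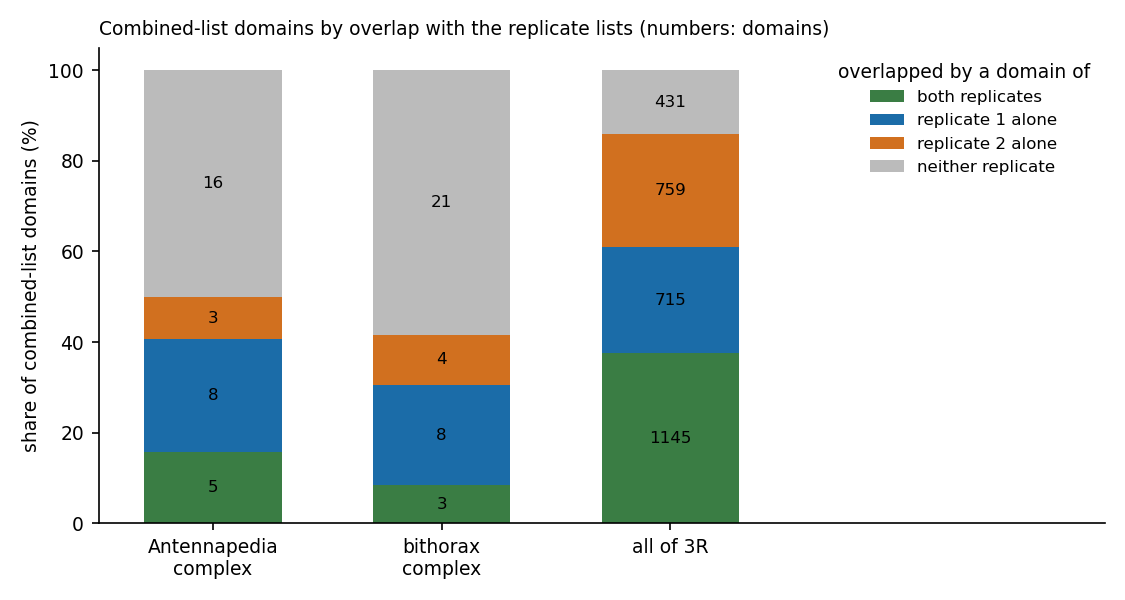
Share of combined-list domains (vertical axis, percent) in the Antennapedia complex, the bithorax complex and all of 3R by whether they overlapped a domain of both replicates, of 1 or of neither; numbers in the bars are domains. Domains on neither replicate make up 16 of 32, 21 of 36 and 431 of 3050.

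The complexes were then compared with each other, and neither was covered more in both replicates. The Antennapedia complex minus the bithorax complex was -0.519 percentage points in replicate 1 and 2.40 in replicate 2, a mean of 0.942 ± 2.07 (SD, n = 2), which is less than the spread between replicates. In the combined list the Antennapedia complex had 19.8% and the bithorax complex 21.8%. The number of domains per 100 kb also changed sides, at 4.00 in the Antennapedia complex against 4.69 in the bithorax complex in replicate 1, and at 3.71 against 2.50 in replicate 2. The Antennapedia complex held the highest scores of either complex in each list, all in the domain near its middle. Spacing depended on the list. Members of the Antennapedia complex in replicate 2 lay apart by a median of 20307.5 bp against 6170 bp in the bithorax complex and 2538.5 bp between neighbouring domains of 3R. In replicate 1 these medians were 6532 bp, 2320.5 bp and 2362.5 bp. The combined list had the opposite order, with 1422 bp in the Antennapedia complex against 3231 bp in the bithorax complex and 1447 bp on 3R. No difference between the complexes was tested.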

How the data were processed

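Regions of H3K9me1 were analysed in 2 ChIP replicates; the inputs have no list of their own here. Per the submitters' processing notes, reads were aligned with Bowtie 0.12.7. The file headers name FlyBase release 5 as the build of the coordinates. The region caller, its thresholds and read depth were not given in the sources used. The authors deposited 1 score per region, which was used within a list only. Depth and calling threshold both affect how many regions are called and how long they are.

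Samples were grouped by their titles. Domains of 3R (27.9 Mb) overlapping a window by 1 bp or more were members; covered share is bases in domains over window length, inside the window. Shifted windows moved by 10 kb. Means and SDs are over 2 replicates; intervals are Clopper-Pearson. Regions named were, per complex, the 5 longest and 3 highest-scoring combined domains, the longest and highest-scoring of each replicate and the 3 longest stretches free of both; other regions were named after their values were seen. The members and lists were chosen with earlier results of these data known. Alternatives covered score, length, merging, overlap, window edges, the shift, the combined list and single replicates. Coverage per gene was planned and not run. Interval code was tested on simulated data. Python 3.11.15, numpy 2.4.6, scipy 1.17.1 and matplotlib 3.10.9 were used.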

Additional observations from a re-analysis of the deposited data

How the results depend on the processing

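Over 20 results, 138 alternative values were computed: 100 were counted as unchanged, 33 as moved and 5 as changed in sign. The limit for a move differed between results. It was the SD of the replicates for covered share, position, median length and score difference. For overlap shares and the Jaccard index it was an interval around the main value. For domain number it was a fixed ratio to the main value, which was wider than the SD in the Antennapedia complex. Merging gave 11.0 Antennapedia domains against 13.5, which counted as unchanged although the SD was 0.707. With single replicates the covered share was 8.12% to 10.8% in the Antennapedia complex and 5.71% to 11.3% in the bithorax complex. The rest of 3R had 31.9% in replicate 1 and 28.4% in replicate 2. For covered share, position and median length, a single replicate always lies within the SD of the same 2 values. Those values could not be counted as moved, so their count carries no support. With domains at or above the median score only, the share was 5.27% and 4.20%, the mean number 4.5 and 4.5, and the median length 3907 and 2878 bp. With domains of at least 2000 bp, the Antennapedia share was 5.44%, the numbers 4.5 and 4.5 and the lengths 3907 and 3419.75 bp, and the replicate 2 Antennapedia score difference turned to 0.170 from a main value of -0.121. Under both filters, bithorax domains found in the other replicate were 0% for each replicate and the Jaccard index was 0, on few domains. Merging gaps of 1000 bp gave a bithorax median length of 2526.75 bp. Reciprocal overlap of 50% left 15.4% of replicate 2 Antennapedia domains found. The mean share of shifted windows lying lower was 3.68% for the Antennapedia complex and 3.75% for the bithorax complex. It was 5.89% for the Antennapedia complex with windows trimmed by 20 kb and 8.26% for the bithorax complex with windows extended by 20 kb, where the bithorax number was 17.5. In the combined list the shares were 19.8% and 21.8%, the positions 9.13% and 13.6%, the numbers 32 and 36, the lengths 1288.5 and 1417 bp, and the score differences -0.0139 and -0.0134, the second opposite in sign to the 0.0733 of replicate 2. The Antennapedia complex minus the bithorax complex was -3.08 points with extended windows, -1.98 in the combined list and -0.519 to 2.40 with single replicates. The alternatives for combined domains on neither replicate were chosen after seeing the data: the share of 54.4% was 24.3% among those of 1301 bp or more and 64.7% to 77.9% with a single replicate. The cause of these moves was not tested, beyond fewer domains under each filter. Score differences are per list, so leaving out a replicate gives no further value. No paired analysis was possible because regions were listed for the ChIP group alone, each already called against its input. Unknown read depth and 2 replicates limit every statement.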
